A study of Mus musculus with 9 samples.

Results

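The transcription factor genes Gata1, Gata2 and Gata3 and the gene of the GATA cofactor FOG1, Zfpm1, were followed across 3 groups of mouse bone marrow cells. They were chosen by symbol in the annotation of the array, which gave 4 transcript clusters (each a group of probes summarized to a single value for a gene or locus), 1 for each gene, out of 21072. The clusters of Gata1, Gata2 and Zfpm1 carry 1 symbol each. That of Gata3 is shared with the long noncoding RNA gene 9230102O04Rik, so its signal cannot be given to Gata3 alone. The cells came from C57BL/6 females aged 8 weeks, given 5-fluorouracil (150 mg/kg), a drug that kills dividing cells, with marrow taken after 6 days, and were enriched for Lin-Sca+Kit+ cells, the stem and progenitor fraction of bone marrow. They were infected with retroviral particles of an empty EGFP vector (MIE, the control), of GATA2 wild type with EGFP, or of GATA2 R396Q with EGFP, and GFP-positive cells were sorted after 72 h of culture. Each group had 3 arrays, and all 3 groups shared the drug, the infection and the sort. The labels give neither the promoter that drives the insert nor the species of the GATA2 cDNA. They also leave unstated whether samples within a group are from different animals or cultures.

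GATA factors are zinc finger proteins that bind the letters GATA in DNA. GATA2 acts in blood stem and progenitor cells and in mast cells, GATA1 drives the formation of red cells, megakaryocytes, mast cells and eosinophils, and GATA3 is the GATA factor of T cells and innate lymphoid cells. During red cell formation GATA1 takes the place of GATA2 on shared sites and the Gata2 gene is turned down, which is known as the GATA switch. FOG1 does not bind DNA itself. It binds the N-terminal zinc finger of GATA factors and brings the NuRD complex, a chromatin remodelling and deacetylase complex, and CtBP corepressors to their sites. R396Q replaces an arginine in the C-terminal zinc finger, the finger that makes the main contact with DNA, and is known from people with inherited GATA2 deficiency.

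The sequences before the starts of Gata1, Zfpm1 and Gata2 are shown because these genes had higher signal with GATA2 wild type and are known targets of GATA factors. Each is the 250 bases upstream of a start listed by RefSeq for the build GRCm38.p6, printed 5′ to 3′ on the strand of the gene. Capitals mark the letters GATA or CACCC on either strand (read as TATC or GGGTG on the other); CACCC is the core that KLF factors such as the erythroid KLF1 bind.
Gata1, chrX:7967911-7968160, minus strand: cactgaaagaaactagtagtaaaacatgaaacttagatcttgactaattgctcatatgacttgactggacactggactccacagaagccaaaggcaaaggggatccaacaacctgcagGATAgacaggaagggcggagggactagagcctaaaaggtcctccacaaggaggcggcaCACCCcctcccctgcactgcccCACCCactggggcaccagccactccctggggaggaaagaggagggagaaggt
Zfpm1, chr8:122281891-122282140, plus strand: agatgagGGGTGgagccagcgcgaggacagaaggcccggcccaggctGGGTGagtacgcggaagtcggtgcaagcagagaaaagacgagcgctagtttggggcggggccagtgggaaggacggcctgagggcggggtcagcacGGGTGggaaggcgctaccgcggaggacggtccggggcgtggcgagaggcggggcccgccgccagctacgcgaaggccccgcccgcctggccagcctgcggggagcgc
Gata2, distal start, chr6:88193641-88193890, plus strand: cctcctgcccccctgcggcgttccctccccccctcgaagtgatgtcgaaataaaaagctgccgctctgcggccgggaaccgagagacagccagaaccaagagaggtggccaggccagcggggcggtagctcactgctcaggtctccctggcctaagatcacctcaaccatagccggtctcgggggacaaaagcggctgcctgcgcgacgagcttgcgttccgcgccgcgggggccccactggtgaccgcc
Gata2, proximal start, chr6:88198414-88198663, plus strand: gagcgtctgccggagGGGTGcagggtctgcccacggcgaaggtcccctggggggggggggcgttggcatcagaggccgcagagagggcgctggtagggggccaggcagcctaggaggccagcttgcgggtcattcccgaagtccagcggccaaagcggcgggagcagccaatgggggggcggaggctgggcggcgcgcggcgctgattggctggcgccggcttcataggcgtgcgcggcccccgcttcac
The Gata1 window held 1 match to GATA, at position -132 from the start, and 2 to CACCC. The Zfpm1 window held 3 matches to CACCC and 0 to GATA. The distal Gata2 window held neither, and the proximal held 1 match to CACCC and 0 to GATA. None of the 4 windows held a longer form of the GATA site, that is AGATAA as well as AGATAG, or TGATAA as well as TGATAG, on either strand. Of 32851 promoter windows of this length in the RefSeq table, 26.5% held at least 1 of these longer forms, 53.6% held GATA and 52.0% held CACCC. The distal Gata2 window lies just before the annotated span of its gene, and the other 3 lie inside the span of theirs. These are matches of letters only.

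All values below are log2 signals as deposited, a change is a difference of 2 group means of 3 arrays each (n = 3) on that scale, and SE is its standard error from limma. Rose and fell are used for changes with a Benjamini-Hochberg adjusted p under 0.05 over all 21072 clusters. The median signal per array was 6.06 to 6.19, and lower quartiles were 4.54 to 4.60. Of all clusters, 8.99% changed with wild type against empty vector (4.64% up, 4.35% down), 1.23% with R396Q against empty vector (0.66% up, 0.569% down) and 5.75% between R396Q and wild type (2.67% higher with R396Q, 3.08% lower). With the replicate number as a block these shares were 17.4% (8% up, 9.41% down), 3% (1.66% up, 1.34% down) and 13.1% (7.1% higher with R396Q, 5.95% lower). The arrays of the groups did not overlap in 22.6%, 14.1% and 20.6% of clusters. Because sorted cells were measured in bulk, fewer cells of a type and less RNA per cell cannot be told apart. Of the surface genes behind the labelled selection, Kit averaged 12.3 with empty vector, and Ly6a, which encodes Sca-1, has no cluster under its symbol in the annotation. The T cell markers Cd3e, Cd4 and Cd8a were at 4.02 to 4.58 on every array. The B cell markers Ms4a1 and Cd79a reached 6.90 and 7.34 on single arrays. Itgam, a myeloid lineage marker, was at 10.17 to 11.67 with empty vector. The selection for lineage-negative cells came before the infection and culture, and the arrays measured cells sorted after 72 h of culture. The donors were female, so genes of the Y chromosome give the signal of an absent transcript. On single arrays Zfy2 was lowest, at 3.67 to 3.86, and Eif2s3y reached 5.08, while Sry was at 7.62 to 8.06, so this background differs between clusters. The signals of Gata1 and of the Gata3 cluster below lie inside that range, and for them a signal above background is not shown. The same holds for other genes named below wherever their signals lie inside it. Examples are Il13, Il2ra, Rora and Samd14 on every array. Others are Epor, Vwf and Il4 with empty vector and R396Q, and the Trps1 cluster with wild type and R396Q.

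Of the 4 genes, 3 (Gata1, Gata2 and Zfpm1) rose with wild type, where 4.64% of all clusters did. With R396Q 1 of 4, Gata2, rose, where 0.66% of all clusters did. Gata1 and Zfpm1, 2 of 4, were lower with R396Q than with wild type, where 3.08% of all clusters were. Gata2 is the transduced gene, so its rise checks the labels and is no result in these counts. With R396Q it was the only gene counted as risen. Its signals were 9.87, 9.67 and 9.65 on the empty vector arrays, 11.50, 11.24 and 10.94 with wild type, and 10.65, 10.72 and 10.53 with R396Q. All arrays of both GATA2 vectors lay above all empty vector arrays, and all R396Q arrays lay below all wild type arrays. Gata2 rose 2.81-fold with wild type (1.49, SE 0.14; limma adjusted p = 0.0016) and 1.87-fold with R396Q (0.90, SE 0.14; limma adjusted p = 0.0394). The R396Q call was lost in 7 of the 9 fits that each left out 1 array, that is, without any empty vector array, any R396Q array or wild type 2 (limma adjusted p up to 0.155). Against wild type, the signal with R396Q was 1.51-fold lower (-0.59, SE 0.14, 95% confidence interval -0.92 to -0.26), which did not pass the test (limma adjusted p = 0.0633) but passed with the replicate block (adjusted p = 0.0222). Probes of the cluster may read the vector's transcript as well as that of the mouse gene, and these cannot be told apart here. Each difference between R396Q and wild type below therefore stands beside a lower Gata2 signal with R396Q, whose part in it was not tested.

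Gata1, the erythroid and megakaryocyte member, had higher signal with wild type GATA2 and not with R396Q. Its signals were 5.75, 5.55 and 5.78 with empty vector, 6.73, 6.29 and 6.75 with wild type, and 5.55, 5.46 and 5.41 with R396Q. Every wild type array lay above every other array, while R396Q overlapped empty vector, as 5.55 was the signal of an array in each. Gata1 rose 1.86-fold with wild type (0.90, SE 0.13; limma adjusted p = 0.00774), by 0.98, 0.74 and 0.97 within replicate numbers 1, 2 and 3. With R396Q it was 1.16-fold lower than with empty vector (-0.22, SE 0.13, limma adjusted p = 0.579). The 95% confidence interval of that change in signal was -0.53 to 0.09. Because a Gata1 signal above background is not shown, these folds are of the signal, and they set no bound on the transcript. R396Q was 2.16-fold below wild type (-1.11, SE 0.13; limma adjusted p = 0.00473).

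Zfpm1, which encodes FOG1, had the largest changes of the 4 genes with wild type and between R396Q and wild type. Its signals were 8.44, 9.20 and 8.99 with empty vector, 11.75, 11.40 and 11.85 with wild type, and 9.61, 9.20 and 9.30 with R396Q. Every wild type array was above every other array, while R396Q and empty vector arrays met at 9.20. It rose 6.93-fold with wild type (2.79, SE 0.22; limma adjusted p = 0.000802), by 3.31, 2.20 and 2.87 within the replicate numbers, and ranked 100 of 21072 from the largest rise. With R396Q the change was 0.50 (SE 0.22, 95% confidence interval -0.03 to 1.02, limma adjusted p = 0.446). Within the replicate numbers it was 1.18, 0.00 and 0.31, so replicate 1, whose empty vector array was the lowest, held most of it, and without that array it was 0.28. R396Q was 4.92-fold below wild type (-2.30, SE 0.22; limma adjusted p = 0.00244).

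The Gata3 cluster, shared with 9230102O04Rik, showed no detectable difference between empty vector and wild type. Its signals were 5.72, 5.82 and 5.81 with empty vector, 5.82, 5.82 and 5.71 with wild type, and 5.82, 6.17 and 6.12 with R396Q. R396Q replicates 2 and 3 were the highest arrays, and R396Q replicate 1 lay among the other groups. The change with wild type was -0.00077 (SE 0.09, 95% confidence interval -0.22 to 0.22, limma adjusted p = 1). With R396Q it was 0.25 (SE 0.09, limma adjusted p = 0.343 against empty vector and 0.211 against wild type). Without R396Q replicate 1 it was 0.36 in both comparisons, and only that against wild type passed (limma adjusted p = 0.0236 against 0.0647). Of 18 measured genes that go with GATA3 in T and innate lymphoid cells, 4 rose with wild type, where 4.64% of all clusters did. With R396Q 0 rose (limma, 6 at an unadjusted p under 0.05, and 1, Il2ra, passing with the replicate block), near the share of 0.66% over all clusters. The medians were 0.04 in both, beside -0.01 over all clusters in both. Those that rose with wild type included the cytokine genes Il13 (2.42, SE 0.18) and Il4 (2.98, SE 0.30), which mast cells and basophils also make, and Il2ra (1.70, SE 0.22), a chain of the interleukin 2 receptor. The other was Rora, a nuclear receptor of innate lymphoid cells (0.36, SE 0.08), a call lost in 8 of 9 fits without 1 array (limma adjusted p up to 0.113).

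**Figure D1:**
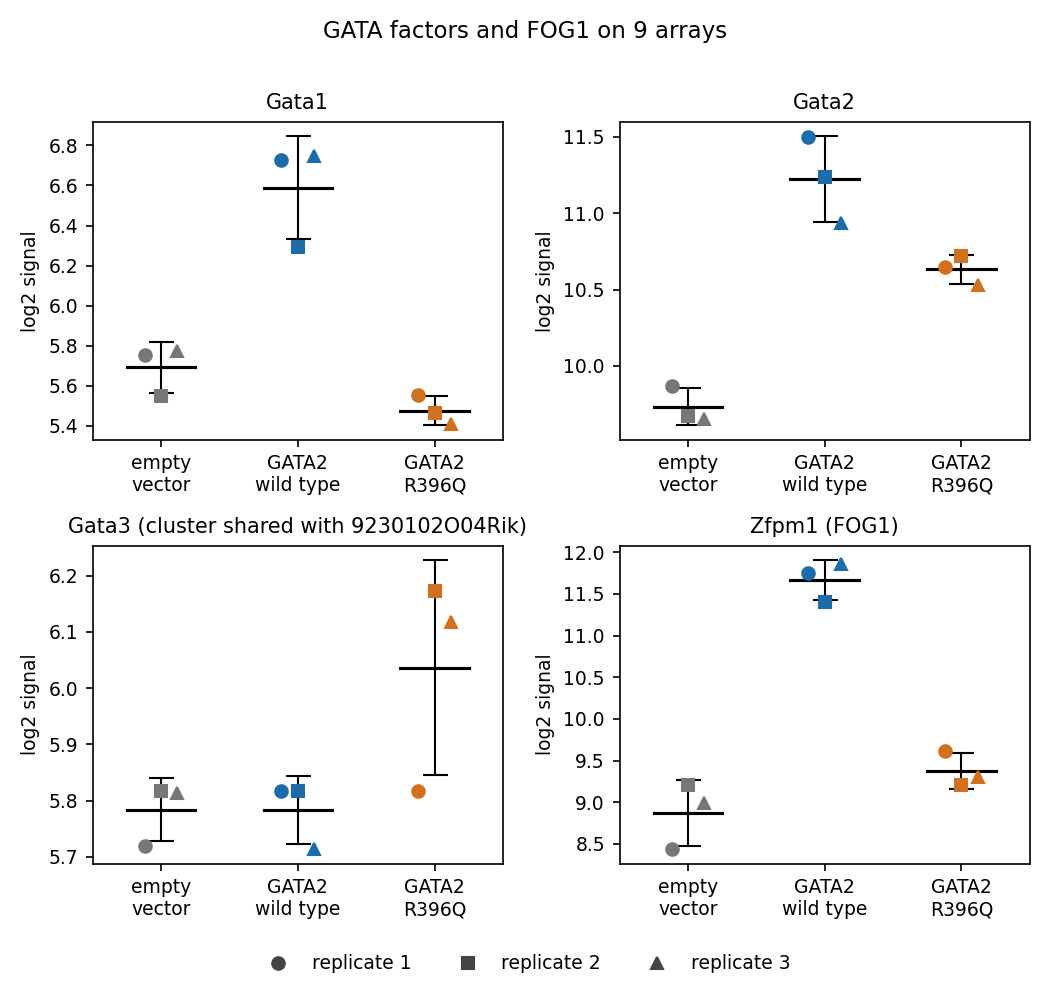
Log2 signal (y axis, a separate range in each panel) of Gata1, Gata2, the Gata3 cluster and Zfpm1 in the 3 groups (x axis), with 1 symbol per array, shaped by replicate number, the group mean as a line and the SD as bars. Wild type stands above both other groups for Gata1 (6.29 to 6.75) and Zfpm1 (11.40 to 11.85), while for Gata2 R396Q (10.53 to 10.72) lies between empty vector and wild type.

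**Figure D2:**
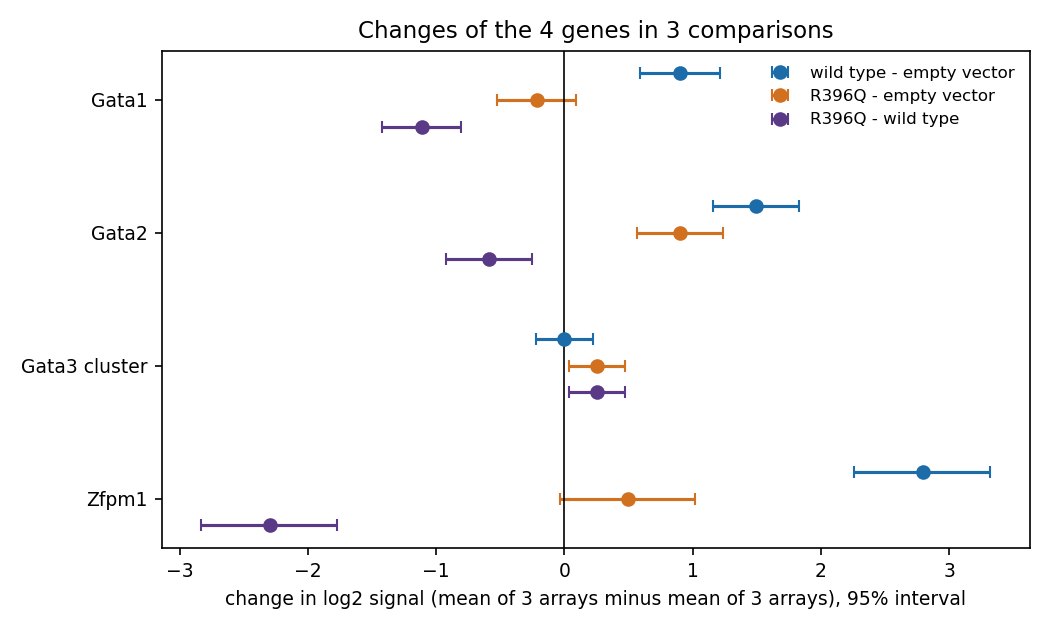
Change in log2 signal (x axis) of the 4 genes (y axis) in the 3 comparisons, as points with 95% confidence intervals from limma. The intervals of Gata1 and Zfpm1 with R396Q against empty vector include 0 (-0.53 to 0.09 and -0.03 to 1.02), whereas those with wild type do not.

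The gap between Gata1 and Gata2 was also followed. The difference of their signals within an array, Gata1 minus Gata2, was -4.12, -4.12 and -3.88 with empty vector, -4.77, -4.94 and -4.19 with wild type, and -5.10, -5.26 and -5.12 with R396Q. These do not compare the levels of the genes, since each cluster has its own probes. A shift between groups also holds the transduced gene in 1 term and, in the other, a Gata1 signal not shown to be above background. The shift was -0.60 with wild type (-4.64 ± 0.39 against -4.04 ± 0.14, SD, n = 3), -1.12 with R396Q (-5.16 ± 0.08) and -0.52 between R396Q and wild type. The 3 groups did not overlap, and each comparison had p = 0.1 in an exact 2-sided permutation test, the smallest that 3 arrays against 3 can give.

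Among the other genes of the GATA and FOG families, Trps1 stood apart. It encodes a repressor with a GATA-type zinc finger, and its cluster is shared with the microRNA gene Mir1907. Its signals were 8.16, 7.97 and 8.04 with empty vector, 6.61, 6.37 and 6.73 with wild type, and 7.51, 7.56 and 7.51 with R396Q. The 3 groups did not overlap, with R396Q between the others. The cluster fell 2.81-fold with wild type (-1.49, SE 0.09; limma adjusted p = 0.00039). With R396Q it was 1.45-fold lower than with empty vector and just missed the test (-0.53, SE 0.09; limma adjusted p = 0.0529). R396Q was 1.94-fold above wild type (0.96, SE 0.09; limma adjusted p = 0.00247). Gata4, Gata5 and Gata6, which act in heart, gut and other organs, and Zfpm2, which encodes FOG2, had signals of 3.79 to 4.95 on all arrays, below the highest signal of Eif2s3y. None of these 4 changed in any comparison (limma, 0 of 4 at an adjusted p under 0.05), where 8.99%, 1.23% and 5.75% of all clusters did. Their changes were -0.11 to 0.04. Without adjustment 1 of them, Gata4, fell under 0.05 with R396Q against empty vector (-0.11), and 0 did in the other comparisons.

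**Figure D3:**
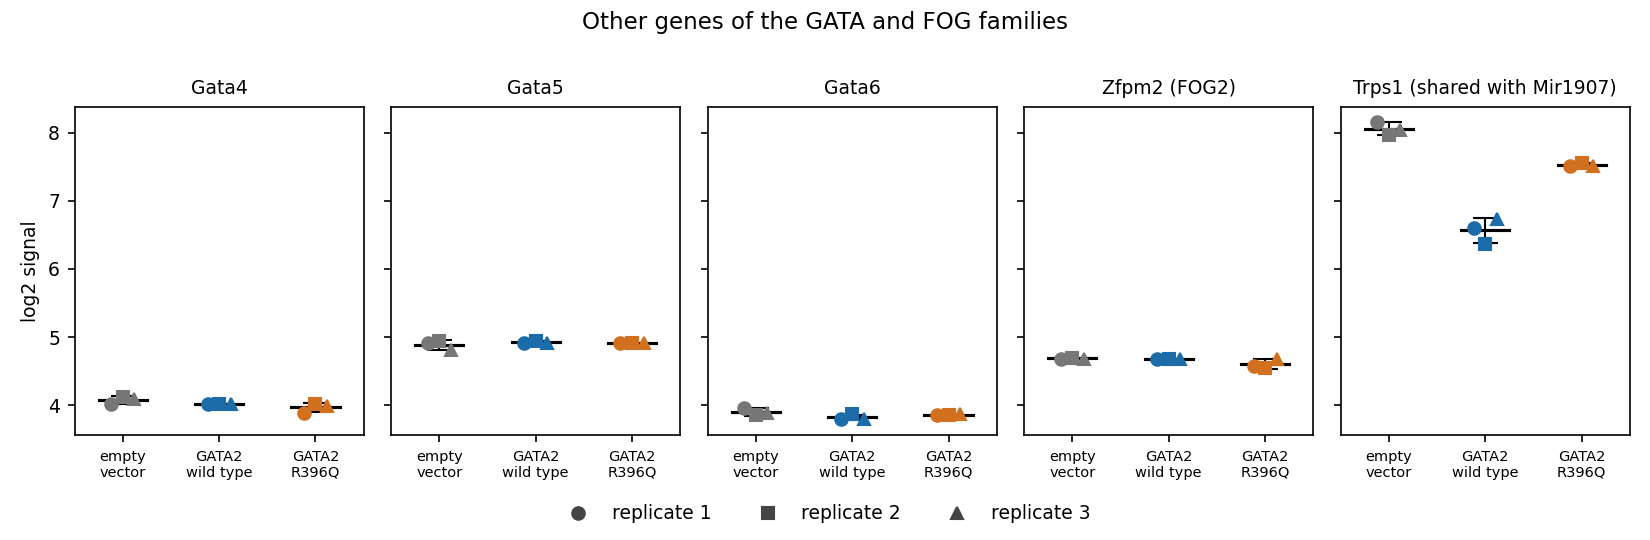
Log2 signal (y axis, shared) of Gata4, Gata5, Gata6, Zfpm2 and the cluster of Trps1 and Mir1907 in the 3 groups (x axis), with 1 symbol per array, the mean as a line and the SD as bars. Trps1 steps down from empty vector (mean 8.06) through R396Q (7.53) to wild type (6.57), and the other 4 stay between 3.79 and 4.95.

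GATA factors work in complexes with TAL1, LMO2 and LDB1 and with other blood factors, and are held in check by factors such as PU.1. Of 22 measured partners and antagonists, 7 rose and 3 fell with wild type, 2 rose and 1 fell with R396Q, and 1 was higher and 5 lower with R396Q than with wild type. Over all clusters 4.64% rose and 4.35% fell with wild type, and 0.66% rose and 0.569% fell with R396Q. Between the vectors 2.67% were higher and 3.08% lower with R396Q. The medians were -0.01, 0.11 and 0.05, beside -0.01, -0.01 and 0.00 over all clusters. Klf1, an erythroid transcription factor, had signals of 6.12, 5.49 and 5.73 with empty vector, 11.34, 9.86 and 10.27 with wild type, and 6.12, 5.43 and 5.48 with R396Q. Its change was 4.71 with wild type (SE 0.40) and -0.10 with R396Q (SE 0.40, limma adjusted p = 0.971). Its signals with empty vector and R396Q lie inside the range of the Y-linked genes, so for Klf1 too a signal above background is not shown in those groups. Gfi1b, a repressor needed by erythroid cells and megakaryocytes, rose by 4.26 with wild type (SE 0.29) and was 1.14 higher with R396Q (SE 0.29, limma adjusted p = 0.154). The difference of Gfi1b between R396Q and wild type was -3.12 (limma adjusted p = 0.00214).

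The core complex did not move as a block. Tal1 rose by 1.30 with wild type (SE 0.245, limma adjusted p = 0.0211), a call lost without wild type 1 and without wild type 2 (adjusted p up to 0.0703). Its relative Lyl1 fell, by 3.01 with wild type (SE 0.36) and by 2.19 with R396Q (SE 0.36, limma adjusted p = 0.0453, lost with the replicate block at 0.0605 and in 8 of 9 fits without 1 array). The bridging factors Lmo2 (-0.21, SE 0.18) and Ldb1 (-0.08, SE 0.08) did not pass with wild type, whereas Ssbp3, which stabilizes LDB1, rose by 1.29 (SE 0.13). Runx1, a factor of blood stem cells and megakaryocytes, rose by 1.20 with wild type and 1.13 with R396Q (SE 0.17 each), although the R396Q call was lost in 8 of 9 fits without 1 array (limma adjusted p up to 0.143). Fli1, the ETS factor of megakaryocytes, rose by 0.86 with wild type and 0.55 with R396Q (SE 0.05 each), the R396Q call being lost with only the 2 groups fitted and with quantile normalization (limma adjusted p up to 0.0709). The ETS factor Erg went apart, with signals of 9.19, 9.25 and 9.19 with empty vector, 7.61, 7.79 and 7.38 with wild type and 10.10, 9.63 and 9.68 with R396Q. It fell by 1.61 with wild type (SE 0.15), and R396Q was 2.21 above wild type (SE 0.15, limma adjusted p = 0.000679). The higher signal of Erg with R396Q than with empty vector did not pass the test. Spi1, which encodes PU.1, lies in a cluster that the annotation gives to Spi1 and Sfpi1 and so is outside the counts. That cluster fell by 2.23 with wild type (SE 0.26), and its change with R396Q was -0.86 (SE 0.26, limma adjusted p = 0.235, and 0.0263 with the replicate block).

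**Figure D4:**
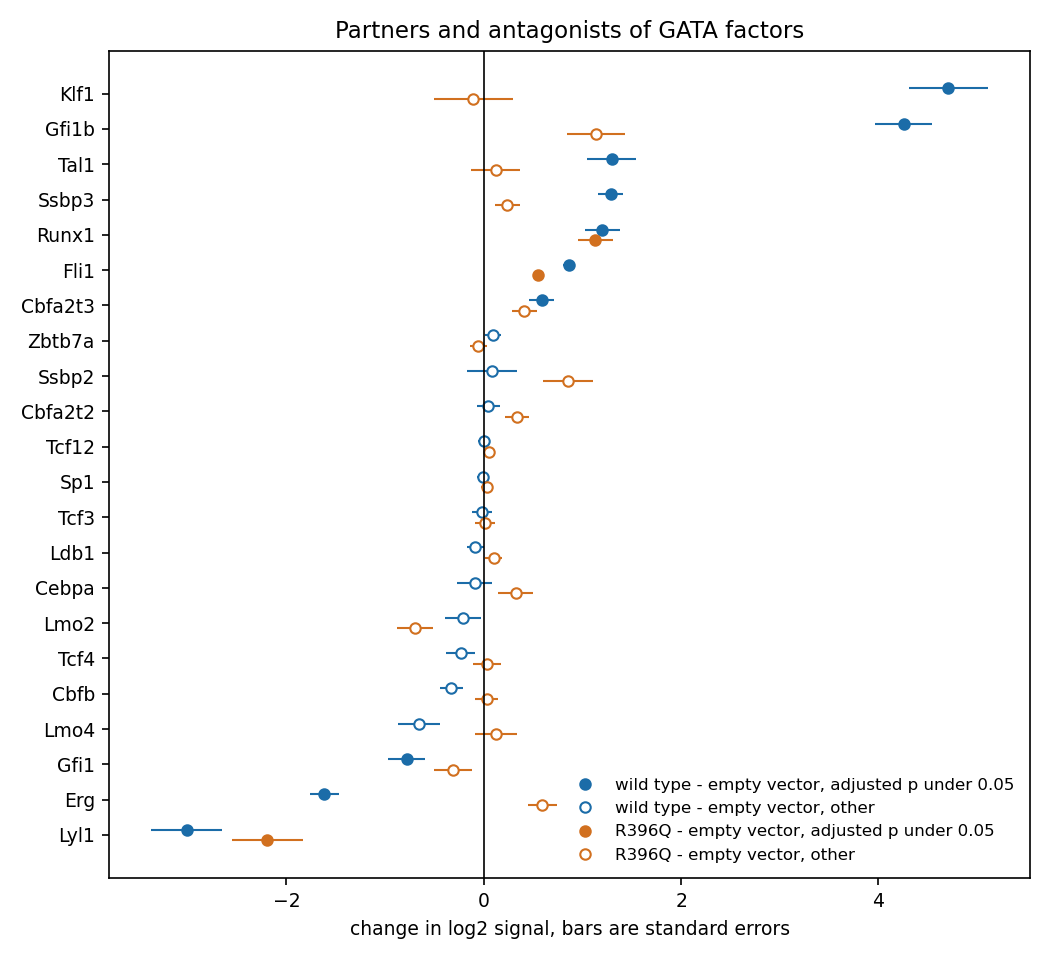
Change in log2 signal from empty vector (x axis) of 22 partners and antagonists of GATA factors (y axis) with wild type and with R396Q, with standard errors as bars and filled points where the limma adjusted p is under 0.05. Klf1 and Gfi1b lead with wild type (4.71 and 4.26) and lie at -0.10 and 1.14 with R396Q, and Erg lies on opposite sides of 0 (-1.61 and 0.59). For Erg only the change with wild type passed.

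FOG1 brings corepressors to the sites of GATA factors. Of 15 measured NuRD, CtBP and related genes, 2 rose and 1 fell with wild type, where 8.99% of all clusters changed. None changed with R396Q (limma, 2 at an unadjusted p under 0.05), where 1.23% did, and 1 differed between the vectors, where 5.75% did. The medians were -0.03, 0.06 and 0.14. Rbbp7, a histone-binding subunit of NuRD, fell by 0.40 with wild type (SE 0.05; limma adjusted p = 0.00471) and was 0.41 higher with R396Q than with wild type (limma adjusted p = 0.00597). Mta3, another NuRD subunit, rose by 1.27 (SE 0.26) and the methyl-DNA binding subunit Mbd2 by 0.60 (SE 0.135). Those calls were lost in 5 and 7 of 9 fits without 1 array (limma adjusted p up to 0.0778 and 0.119). Hdac1 (-0.13, SE 0.30), Hdac2 (-0.45, SE 0.18), Gatad2a (0.16, SE 0.18) and Gatad2b (0.09, SE 0.09) did not pass with wild type. With the replicate block 5 changed with wild type, where 17.4% of all clusters did. With R396Q 1 did (Chd3, 0.44, adjusted p = 0.0495 with the block), where 3% did, and 4 between them, where 13.1% did. Of 12 coactivators, modifiers and turnover factors of GATA proteins, none passed in any of the 3 comparisons with limma, and 1, 0 and 1 had an unadjusted p under 0.05. Over all clusters 8.99%, 1.23% and 5.75% passed, so 0 of 12 is near these shares and is no result about these genes. The 12 include the acetyltransferase genes Crebbp (-0.31, SE 0.20) and Ep300 (0.23, SE 0.13) and Fbxw7 (0.01, SE 0.04), whose product marks GATA2 for destruction. With the block 2 fell with wild type, Pias4 (-0.28, adjusted p = 0.0261) and Kpnb1 (-0.44, adjusted p = 0.0402), and 1 was higher with R396Q than with wild type, Crebbp (0.38, adjusted p = 0.0387). Over all clusters with the block 9.41% fell with wild type and 7.1% were higher with R396Q than with wild type.

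Genes that GATA1 and FOG1 are known to switch on rose with wild type in more than 1 list, and many were lower with R396Q than with wild type. Of 22 measured erythroid targets (a list that holds Zfpm1 itself), 14 rose and 0 fell with wild type, with a median of 1.20, and none passed with R396Q (limma, 4 at an unadjusted p under 0.05), with a median of -0.01. Between the vectors 14 were lower with R396Q and none higher (median -1.06). Over all clusters 4.64% rose and 4.35% fell with wild type, and between the vectors 2.67% were higher and 3.08% lower with R396Q. The same shares stand beside the megakaryocyte counts below. Epor, the erythropoietin receptor gene, rose by 2.55 (SE 0.25) and differed by -2.72 between R396Q and wild type. Car2, a carbonic anhydrase, rose by 4.18 (SE 0.22). Of 18 megakaryocyte targets, 12 rose and 0 fell with wild type (median 2.23) and none passed with R396Q (limma, 5 at an unadjusted p under 0.05; median -0.11), while 9 were lower with R396Q than with wild type (median -1.55). Vwf, the gene of von Willebrand factor, rose by 3.59 (SE 0.17), and differed by -3.74 between R396Q and wild type. With the block 3 of the megakaryocyte genes rose with R396Q, where 1.66% of all clusters did, and single changes in that list reached 1.57. Without it 1.23% of all clusters passed with R396Q, so 0 of either list is near that share.

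Targets of GATA2 split. Of 19 mast cell and basophil genes, 9 rose and 1 fell with wild type (median 2.00), none rose and 1 fell with R396Q (median 0.30), and 7 were lower and 1 higher with R396Q than with wild type. Hdc, which makes histamine, rose by 4.14 with wild type (SE 0.28). Kit, the receptor gene used in the selection, fell by 2.81 with wild type and by 1.81 with R396Q (SE 0.08 each) and was the fall in both. With the block 2 of the 19 rose with R396Q, where 1.66% of all clusters did. Without the block 4.64% of all clusters rose and 4.35% fell with wild type, and 0.66% rose and 0.569% fell with R396Q. Between the vectors 2.67% were higher and 3.08% lower with R396Q. That none of the 19 rose with R396Q is near the share of 0.66%. The shares without the block also stand beside the progenitor counts that follow. Of 17 progenitor targets, 3 rose and 7 fell with wild type (median -0.40), 1 rose and 2 fell with R396Q (median -0.19), and 5 were higher and 4 lower with R396Q than with wild type. The lists share genes, so their counts are not separate. Tal1, Lyl1, Fli1 and Erg are also among the partners and antagonists, and Kit is among the mast cell genes. The progenitor calls with R396Q were Fli1, Lyl1 and Kit. Klf1 and Gfi1b are in both the partner and the erythroid list, and Il4 and Il13 in both the mast cell and the GATA3-associated list. Cd34, a progenitor surface marker, fell by 4.63 with wild type (SE 0.13), and R396Q was 4.22 above wild type. Samd14, a known GATA2 target that aids KIT signalling, rose by 2.27 with wild type (SE 0.24) and differed by -2.20 between R396Q and wild type. Genes of neutrophils and monocytes moved with the groups as well. Of 22, 10 fell and 0 rose with wild type (median -3.60), and 4 fell and 0 rose with R396Q (median -1.14). Over all clusters 4.35% and 0.569% fell. Between the vectors 4 were higher and 0 lower with R396Q (median 2.61), where 2.67% of all clusters were higher. With the block 17 fell with wild type and 6 with R396Q, where 9.41% and 1.34% did. Between the vectors 10 were then higher and 1 lower with R396Q, where 7.1% and 5.95% were. The mean signal over these 22 was at least 11.3 on the empty vector arrays, 7.64 to 9.72 on wild type and 9.75 to 11.7 on R396Q arrays. In each group Itgam and Ly6g, a neutrophil marker, were highest on replicate 1 and lowest on replicate 3. The list did not run 1 way over the replicates. Csf1r, also of the list, was highest on replicate 3 in each group (9.76 with empty vector, 5.45 with wild type and 5.93 with R396Q). The part of the neutrophil and monocyte genes in the changes of Gata1, Zfpm1 and Trps1 was not tested.

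**Figure D5:**
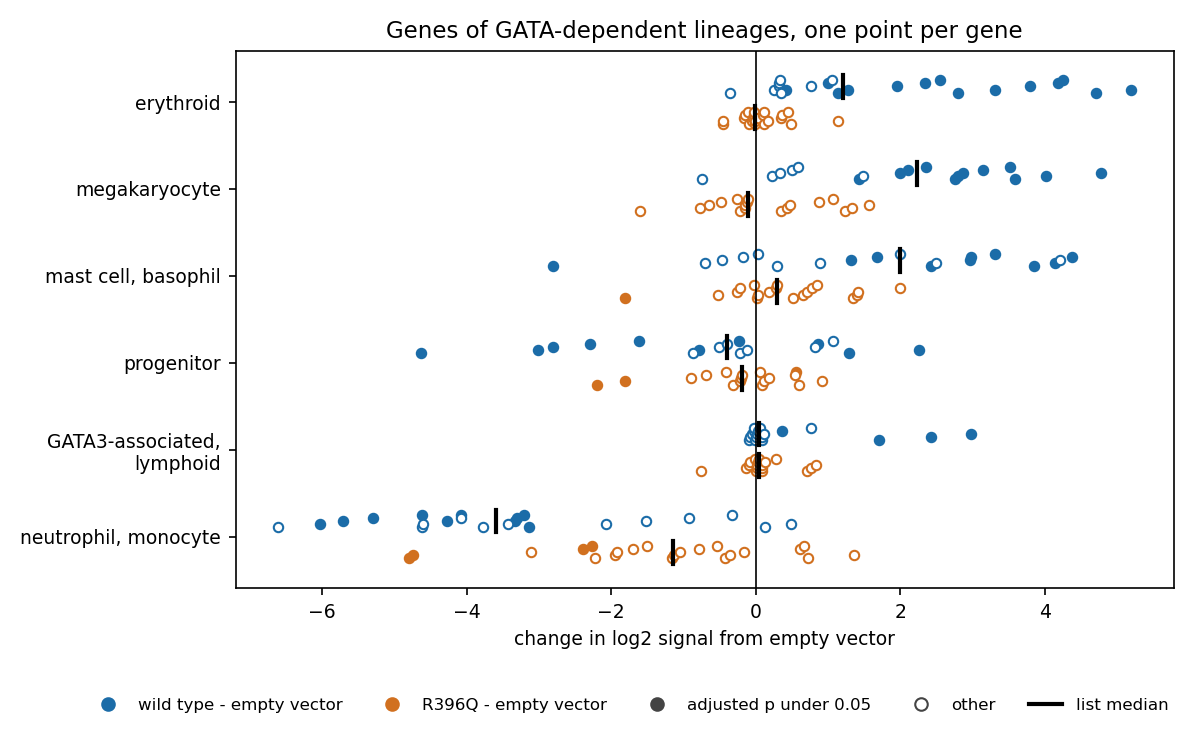
Change in log2 signal from empty vector (x axis) of each gene in 6 lists (y axis) with wild type and with R396Q, filled where the limma adjusted p is under 0.05, with the list median as a bar. The erythroid and megakaryocyte medians are 1.20 and 2.23 with wild type and -0.01 and -0.11 with R396Q, and the neutrophil and monocyte medians are -3.60 and -1.14.

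The clusters whose signals ran most closely with each gene over the 9 arrays were found by Pearson correlation among clusters with 1 symbol and a range of at least 1 unit. The 9 arrays share 3 groups, so r mostly reflects the order of the group means and is given as a description. Closest to Gata1, of 4117, were Arrb1 (r = 0.996), Lmna (0.992), Clu (0.990), Sh3bgrl2 (0.990) and Sirt2 (0.987). All 5 were highest with wild type and lowest with R396Q, as Gata1 was; the means of Arrb1, which encodes an arrestin, were 9.38 with empty vector, 10.5 with wild type and 9.05 with R396Q. Closest to Zfpm1 were Ppp6r2 (r = 0.993), Arhgef12 (0.986), Rec8 (0.985), Asap2 (0.985) and Adcy6 (0.983). Closest to Gata2 were Ripor2 (r = 0.985), Nucb1 (0.984), Itpr2 (0.982), Blm (0.977) and Esyt1 (0.976), all with R396Q between the other groups. The means of Itpr2, a calcium channel of the endoplasmic reticulum, were 7.75 with empty vector, 9.88 with wild type and 9.08 with R396Q. Most like the Gata3 cluster were Ehbp1 (r = 0.960), Emp2 (0.914), Phf19 (0.893), Pdzd4 (0.890) and Gcsam (0.876), whose r were lower than those of the other 3 genes. Running most against Gata1 were Nsd2 (r = -0.990), Sun2 (-0.986) and Ubash3a (-0.978), and against Zfpm1 Pgap2 (-0.981), Pinx1 (-0.979) and Trem1 (-0.979), a receptor of neutrophils and monocytes with a mean of 11.3 with empty vector and 6.02 with wild type. Against Gata2 they were Hip1 (r = -0.983), Sh3tc1 (-0.982) and Sh2b2 (-0.974), and against the Gata3 cluster Grb10 (-0.921), Sla (-0.915) and Atp7a (-0.906).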

How the data were processed

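RNA of 9 samples, 3 per group, was hybridized to Affymetrix whole-transcript arrays. The deposited table holds 1 log2 value per cluster and array, which the authors made with RMA (background correction, normalization between arrays, summing of probes) in Expression Console from Affymetrix (per the submitters' processing notes, without a version). By the labels the array is the Mouse Exon 1.0 ST, whereas the cluster identifiers are of a later type. Probe annotation came with the platform, and 18236 gene identifiers matched a RefSeq gene table of GRCm38.p6, which updated 418 symbols. Lists used only clusters with 1 symbol.

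Tests used limma 3.58.1 under R 4.3.3 (a mean per group over all 9 arrays; moderated variances with 6 residual and 0.956 prior degrees of freedom; 2-sided, Benjamini-Hochberg over 21072 clusters). The script was tested on simulated data. Same-numbered arrays shifted together around the means of their groups (r of 0.451 to 0.693 in 9 pairs, against -0.537 to -0.09 in 18 pairs with different numbers), although the labels do not say what they share, so the number was a block in an alternative fit. Deviations from a group mean cancel within the group, so positive r in same-numbered pairs brings negative r in the others by construction. Since separate cultures or mice are not stated, p-values reflect only how these samples vary, which may be technical, and 3 arrays per group limit the precision. The genes and lists were chosen with earlier results of these data known. Genes named from lists were up to 3 with the smallest p among those past the test in a comparison, all of the GATA and FOG family, and the 5 most like and 3 most opposite clusters of each gene. Others named (Rora, Tal1, Runx1, Ssbp3, Samd14, Lmo2, Ldb1, Spi1, Hdac1, Hdac2, Gatad2a, Gatad2b, Chd3, Crebbp, Ep300, Fbxw7, Pias4, Kpnb1, Csf1r and the background and sort markers) were chosen after their values were seen. The alternatives were the replicate block, fits on 2 groups, trend and robust options, array weights, median subtraction, quantile normalization, leaving out the dimmest 30% or 50%, at least 6 distinct values, averaging clusters that carry the same symbol, and dropping every array in turn.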

Additional observations from a re-analysis of the deposited data

How the results depend on the processing

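The calls of Gata1 and Zfpm1 with wild type and between the vectors held under every alternative that gave a value, with changes of 0.82 to 1.04 and 2.57 to 2.96 with wild type and -1.26 to -1.03 and -2.43 to -2.21 between the vectors when 1 array was left out. Neither passed with R396Q against empty vector under any of them. Gata1 and the Gata3 cluster have no value without the dimmest 50% of clusters. The Gata2 call with R396Q held in all 10 other settings and, with 1 array left out (0.86 to 0.97), in 2 of 9. The difference of Gata2 between the vectors passed with the replicate block (-0.59, adjusted p = 0.0222), array weights (-0.55), median subtraction (-0.54), quantile normalization (-0.63), without the dimmest 30% (-0.59) or 50% (-0.59), with at least 6 distinct values (-0.59) and in 1 of 9 fits without 1 array, that without wild type 3 (-0.73 to -0.45 over the 9); the cause was not tested. The Gata3 cluster's change with wild type turned sign with array weights (0.0075) and ran from -0.033 to 0.034 with 1 array left out, and its difference between the vectors from 0.185 to 0.36. The replicate block changed no other call of these 4 genes. Gata1 minus Gata2 kept its sign in every setting.

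With the block 3667, 632 and 2750 of 21072 clusters passed for wild type and for R396Q against the empty vector and for R396Q against wild type, compared with 1894, 259 and 1211 without it. With only the 2 groups fitted 1026, 94 and 772 did, and with 1 array left out 1285 to 1724, 85 to 304 and 650 to 1153. Counts of called list genes moved as well: over 19 alternatives the corepressors ran from 1 to 5 with wild type (3) and 1 to 4 between the vectors (1), neutrophil and monocyte genes from 6 to 17 with wild type (10), 1 to 6 with R396Q (4) and 2 to 11 between the vectors (4), partners and antagonists from 0 to 3 with R396Q (3) and 4 to 10 between the vectors (6), and erythroid targets from 8 to 17 between the vectors (14). Megakaryocyte, mast cell and basophil, and progenitor targets with R396Q ran from 0 to 3 (0), 1 to 4 (1) and 1 to 3 (3), and between the vectors megakaryocyte and progenitor targets from 5 to 10 (9) and 5 to 10 (9). GATA3-associated genes ran from 2 to 4 with wild type (4), 0 to 1 with R396Q (0) and 2 to 6 between the vectors (4), and coactivators from 0 to 2 and 0 to 1 in the first and last comparison (0 in both). The erythroid count with R396Q was 0 under all 19.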

Other observations

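The share of promoter windows (250 bases before a RefSeq start, GRCm38.p6) with 1 of the longer forms of the GATA site differed between the gene lists. It was 69.6% of 23 windows of mast cell and basophil genes, 56.5% of 23 of erythroid targets and 40.0% of 15 of megakaryocyte targets, beside 26.5% of all 32851 windows. For progenitor targets of GATA2 it was 26.3% of 19, for GATA partners and antagonists 28.1% of 32, for GATA3-associated genes 25.9% of 27, for neutrophil and monocyte genes 18.2% of 22, for FOG1-recruited corepressors 18.8% of 16 and for coactivators and modifiers 12.5% of 16. The target lists thus ran from 26.3%, near the share of all windows, to 69.6%. Some genes have several windows and some none in the table, and no test was made.

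Among the 3 wild type arrays the order of the Gata2 signals was not that of the Gata1 or Zfpm1 signals. Gata2 was highest on wild type 1 (11.50) and lowest on wild type 3 (10.94), while Gata1 and Zfpm1 were lowest on wild type 2 (6.29 and 11.40) and highest on wild type 3 (6.75 and 11.85). For Gata1, wild type 1 (6.73) lay close to wild type 3. Against the empty vector array of the same number, each gene rose most in replicate 1. Within replicate numbers 1, 2 and 3 the change was 1.63, 1.56 and 1.29 for Gata2. It was 0.98, 0.74 and 0.97 for Gata1, and 3.31, 2.20 and 2.87 for Zfpm1. The 3 values allow no test.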
